A study of Mus musculus with 38 samples.

Results

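Mice that had fasted for a day and then eaten again were compared with mice that had not yet fasted, to ask which promoters of the soleus differed in level. The 8 libraries are Post 1 to Post 4 and Pre 1 to Pre 4 of the first of 2 sets of libraries, out of 38 libraries in the series. Each set is called a run here. They were chosen by their titles alone, and each came from the soleus of a separate young adult male C57BL/6J mouse. No mouse carried a transgene or a deletion. The Pre mice, labelled as controls, were sampled on day 1 with food always present. Food was withheld from the Post mice on day 2, given back at the start of day 3, and the muscle was taken late in the dark phase of that day, at the clock time used for the Pre mice. The Post mice are labelled as recovered, and the paper places them after torpor, which a day without food induces in these mice. They had also spent more days in the recording chamber, so fast, torpor, refeeding and days in the chamber cannot be told apart. The soleus of 1 or of both legs was used, as the amount of RNA required. The second run holds other mice of the same groups, with 2 Pre and 3 Post libraries. In the paper these are an independent batch of mice, and it names both a NextSeq and a HiSeq platform. The runs therefore differ in mice and perhaps in platform. Means of the other groups of the first run are set beside some results. These are the Mid (8 libraries, labelled torpor), HiT (4, high temperature), Dep (4, torpor deprivation) and Fed (4). The Fed are labelled as starvation, but the paper describes them as not fasted, with food left in place on day 2.

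The measurement was nAnT-iCAGE, a form of CAGE without amplification or tagging, which captures the capped 5′ ends of RNA and sequences them without PCR, so that a tag marks the base where an RNA began. Tags are counted in promoter clusters, and levels are given here as CPM, after TMM normalisation of the library sizes. CPM are the tags of a cluster relative to the tags of the library in all clusters tested, not to every tag sequenced. CAGE levels are not divided by the length of the RNA. In these clusters the 4 Pre libraries had between 24961938 and 29548749 tags and the 4 Post libraries between 24830378 and 28739957. The 10 most abundant clusters took 17.3 to 24% of the tags in the Pre and 17.5 to 29.9% in the Post, the highest being Post 1, and the TMM factors lay between 0.863 and 1.17. The markers of slow fibers were abundant in all 8, with a sum of 25514 to 30669 CPM over 11 genes.

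The soleus is a postural muscle rich in slow-twitch fibers. Muscle fibers adjust transcription to mechanical load through proteins that sit at the Z-disc and I-band of the sarcomere and can enter the nucleus, of which the ankyrin repeat protein *Ankrd2* and the LIM protein *Csrp3* are examples. Muscle also has a circadian clock. In this clock, ARNTL (BMAL1) with CLOCK or NPAS2 binds E-boxes and drives *Per*, *Cry*, *Nr1d1* and *Dbp*. NR1D1 and NR1D2 (REV-ERB) repress *Arntl*, *Npas2* and *Nfil3* through the elements that ROR factors also bind. DBP activates and NFIL3 represses through D-boxes. Feeding is known to set the phase of clocks in peripheral tissues.

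Promoters of some genes named below that held a searched motif are printed here from RefSeq (GRCm38.p6), 5′ to 3′ on the strand of the gene. They end at the base before the highest CAGE start site. *Per3* is an exception and ends at the base before the RefSeq start, itself 44 bp upstream of the CAGE peak. Stretches of *Csrp3* and *Mrln* were also read and held no searched motif, so the printed set does not stand for all promoters below. Capitals mark a short motif found by search. *Per3* (chr4:151044666-151044885, minus strand) has the D-box TTATGTAA at 195 to 202 and at 242 to 249 bp upstream of the CAGE peak, *Bhlhe41* (chr6:145865527-145865640, minus strand) has the E-box CACGTG at 42 to 47 bp upstream of the CAGE peak, and *Nfil3* (chr13:52981045-52981259, minus strand) and *Arntl* (chr7:113207519-113207548, plus strand) have the ROR element, as TGACCTA at 1 to 7 bp and as TAGGTCA at 2 to 8 bp upstream of the peak. *Ankrd2* (chr19:42035807-42036025, plus strand) has the TATA box TATAAA at 23 to 28 bp upstream of its peak.
Per3: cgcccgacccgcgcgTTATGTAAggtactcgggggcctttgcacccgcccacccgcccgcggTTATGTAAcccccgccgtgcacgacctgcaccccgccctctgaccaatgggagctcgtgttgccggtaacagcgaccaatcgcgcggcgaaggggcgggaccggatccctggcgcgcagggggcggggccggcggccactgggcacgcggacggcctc
Bhlhe41: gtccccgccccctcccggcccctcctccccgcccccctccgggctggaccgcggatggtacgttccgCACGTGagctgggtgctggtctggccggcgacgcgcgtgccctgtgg
Nfil3: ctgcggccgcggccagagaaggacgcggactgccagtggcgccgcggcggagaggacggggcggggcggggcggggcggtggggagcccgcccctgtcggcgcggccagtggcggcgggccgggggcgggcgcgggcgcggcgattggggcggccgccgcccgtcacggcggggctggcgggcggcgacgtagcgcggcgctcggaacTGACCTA
Arntl: gacatttagggaaggcagaaagTAGGTCAg
Ankrd2: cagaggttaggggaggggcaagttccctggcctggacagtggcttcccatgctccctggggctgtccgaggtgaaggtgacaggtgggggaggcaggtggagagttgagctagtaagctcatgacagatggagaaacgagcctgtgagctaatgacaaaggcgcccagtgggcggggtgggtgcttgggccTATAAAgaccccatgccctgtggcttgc

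Most promoters did not differ detectably between the Pre and Post. Of 10776 clusters with any tag, 199 passed an FDR of 0.05 from the Pre to Post (1.85%). The FDR is the Benjamini-Hochberg adjusted p over all clusters from edgeR's quasi-likelihood test, fitted on the 28 libraries of the first run. At an unadjusted p below 0.05 there were 1379 clusters (12.8%), the share beside which such counts for the gene lists below are to be read. Of the 199, 113 were up-regulated (1.05%) and 86 down-regulated (0.798%). The changes were small, with a median size of 0.58 on the log2 scale, and 34 of the 199 had a log2 fold change of at least 1 in either direction. The 4 Pre and 4 Post values did not overlap in 191 of the 199, against 11.5% of all clusters (5.98% higher and 5.53% lower in the Post). The number of calls depended on single mice. It was 67 without Post 1, 91 without Post 2, 93 without Pre 1, 101 without Pre 4, 108 without Pre 2, 110 without Pre 3, 135 without Post 3 and 140 without Post 4, and 48 of the 199 passed without each of the 8 in turn. Without TMM normalisation, 21 promoters passed, 10 of them higher. When only the 8 libraries were fitted, 275 passed, of which 185 (67.3%) were higher, against 56.8% of the 199.

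**Figure D1:**
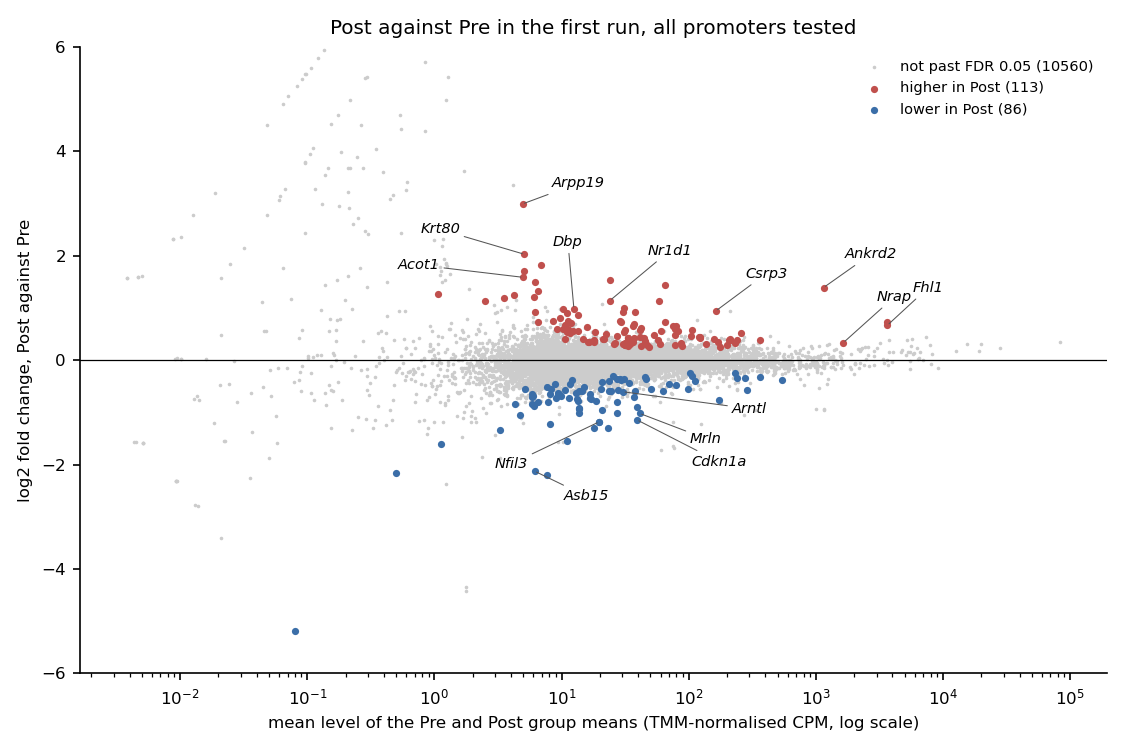
Log2 fold change from Pre to Post against the mean level (CPM, log scale) of each promoter with a level above 0 in the 8 libraries, with promoters past an FDR of 0.05 in red (113 higher) and blue (86 lower). Of the 10759 promoters, 6 lie outside the plotted range, and 34 of the 199 coloured promoters lie at a log2 fold change of 1 or more in size.

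*Ankrd2*, *Csrp3*, *Fhl1* and *Nrap*, which code for proteins of the sarcomere, were higher in the Post mice. Of 21 measured genes on a list of myogenic factors and load genes, 4 were up-regulated and 0 down-regulated by the quasi-likelihood test, where 8 were higher and 0 lower at an unadjusted p below 0.05 and DESeq2 also called 4. The median log2 fold change of the list was 0.24 and 18 of the 21 were above 0, beside a median of −0.01 over all clusters. The summed level of the list was 7852 to 9038 CPM in the 4 Pre and 11096 to 12949 CPM in the 4 Post. Most of this rise lay in the abundant *Fhl1*, *Ankrd2* and *Nrap*, which were themselves among the calls. With a library left out, 2 to 4 of the list passed, the fewest without Pre 1, Pre 2, Post 1 or Post 2, and 1 (*Ankrd2*) passed without TMM.

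*Ankrd2*, a stretch-responsive ankyrin repeat protein of the I-band, had the largest fold change of the 4. Its promoter (chr19:42035524-42037135, plus strand, peak 12 bp from the annotated start) was at 584, 610, 624 and 722 CPM in Pre 1 to 4 and at 1652, 1923, 1558 and 1537 CPM in Post 1 to 4. All Post values lay above all Pre values, with means of 635 ± 60.4 and 1668 ± 178 (SD, n = 4 each). The log2 fold change was 1.39 with an SE of 0.15 (FDR 8.0e-06), and it lay between 1.32 and 1.46 when a library was left out. In the other groups of the run the mean was 800 CPM in the Fed mice, 1747 in the HiT, 1781 in the Mid and 2257 in the Dep. The Fed mean lay between the Pre and Post values, those of the HiT and Mid lay inside the Post range, and that of the Dep lay above it.

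*Csrp3* encodes muscle LIM protein, which binds the Z-disc. Its 5′ promoter (chr7:48847964-48848243, minus strand) was at 107, 87.4, 107 and 146 CPM in the Pre and at 200, 239, 202 and 219 CPM in the Post. The groups did not overlap, and the log2 fold change was 0.94 with an SE of 0.19 (FDR 0.0081). A further cluster in a coding exon of *Csrp3*, 12454 bp from the start of the gene at chr7:48835446-48835650, was at 10.0035 to 18.4 CPM in the Pre and 32.9 to 38.5 CPM in the Post, a log2 fold change of 1.53 (FDR 0.0036).

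*Fhl1*, a LIM protein that scaffolds signalling at the sarcomere, rose at its main muscle promoter (chrX:56779360-56779970, plus strand) from 2509, 2747, 3066 and 2967 CPM in the Pre to 4736, 4952, 3935 and 4344 CPM in the Post. The log2 fold change was 0.67 with an SE of 0.16 (FDR 0.025). *Nrap*, which anchors actin filaments at the ends of myofibrils, was at 1446, 1463, 1434 and 1480 CPM in the Pre and at 1845, 1905, 1821 and 1790 CPM in the Post. The change was small (0.34, SE 0.08, FDR 0.020), and the values lay close together within each group. *Ankrd2* and *Csrp3* passed without each library in turn, while *Fhl1* and *Nrap* passed in 3 of the 8 such fits (highest FDR 0.086 without Pre 1 and 0.074 without Post 1). *Ankrd1*, the cardiac relative of *Ankrd2*, had non-overlapping values of 30.2 to 32.9 CPM in the Pre and 44.9 to 47.4 CPM in the Post, and did not pass (log2 fold change 0.54, FDR 0.15). *Hdac4* (0.64) and the filamin *Flnc* (0.45) did not pass either.

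**Figure D2:**
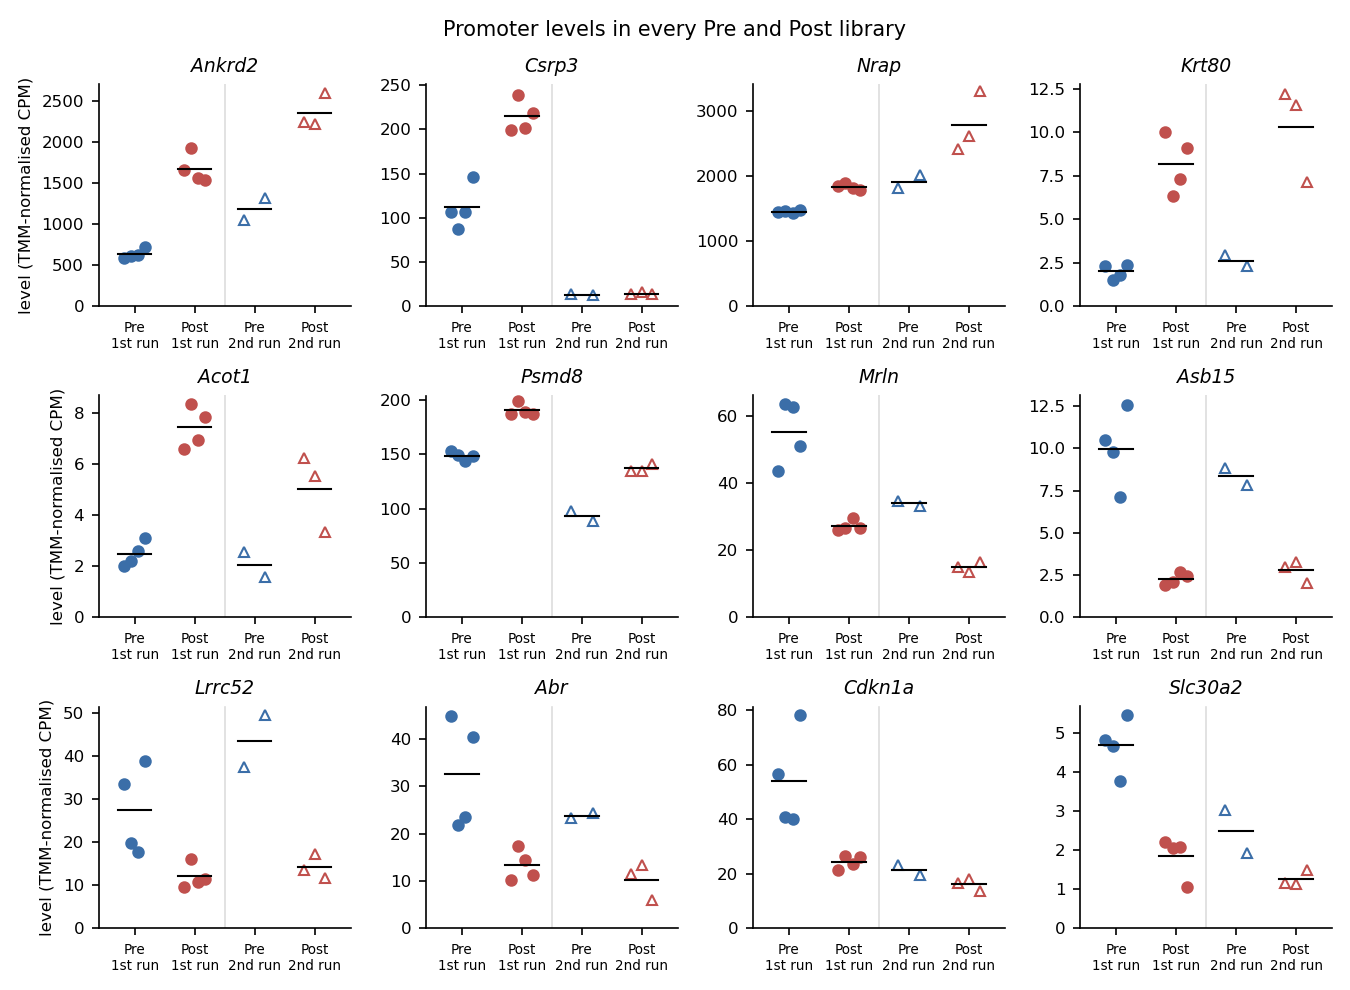
Level (CPM, axes from 0) of 12 promoters in every Pre (blue) and Post (red) library of the first run (filled circles) and the second run (open triangles), with bars for the group means. *Csrp3* in the second run is between 12.3 and 15.6 CPM in all 5 libraries, far below the first run, while *Ankrd2*, *Krt80*, *Mrln* and *Asb15* keep the Pre and Post apart in both.

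Clock promoters moved in opposite directions. Of 14 measured genes of the core clock, 3 were up-regulated (*Nr1d1*, *Nr1d2*, *Per3*) and 2 down-regulated (*Arntl*, *Npas2*), with a list median of −0.04. Of 9 clock output genes, *Dbp* and *Bhlhe41* were up-regulated and *Nfil3* was down-regulated, with a median of 0.13. *Clock*, *Per1*, *Per2*, *Cry1*, *Cry2*, *Rora*, *Csnk1d* and *Csnk1e* did not pass, with log2 fold changes between −0.46 and 0.26.

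*Nr1d1*, the repressor REV-ERBα, was at 17.8, 14.1, 12.1 and 15.8 CPM in the Pre and at 37.8, 36.2, 31.6 and 26.7 CPM in the Post (chr11:98774719-98775426, minus strand). Every Post value was above the highest Pre value, and the log2 fold change was 1.14 with an SE of 0.20 (FDR 0.0019). *Nr1d2*, its paralog REV-ERBβ, went from 36.1, 36.3, 42.4 and 38.9 CPM to 52.4, 55.6, 46.2 and 51.0 CPM, a change of 0.42 (SE 0.11, FDR 0.043). *Per3*, a period gene whose promoter carries the D-boxes printed above, was at 6.58, 7.64, 7.95 and 5.47 CPM in the Pre and at 13.3, 12.6, 12.2 and 16.1 CPM in the Post (0.97, SE 0.22, FDR 0.020).

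*Dbp*, the activator at D-boxes, was at 7.74, 9.03, 8.32 and 8.46 CPM in the Pre and at 19.4, 16.1, 14.6 and 16.3 CPM in the Post (chr7:45704900-45705741, plus strand). The Post libraries were separate from the Pre by more than the spread within either group, with a log2 fold change of 0.99 (SE 0.14, FDR 0.00026). *Bhlhe41* (DEC2), a repressor at E-boxes, went from 11, 13.1, 13.7 and 12.2 CPM to 20.2, 20.8, 17.9 and 18.8 CPM (0.63, SE 0.15, FDR 0.025).

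*Arntl*, *Npas2* and *Nfil3* fell. *Arntl* was at 37.8, 34.1, 34.3 and 41.0 CPM in the Pre and at 23.1, 23.3, 27.8 and 22.7 CPM in the Post (chr7:113207414-113207632, plus strand), a log2 fold change of −0.61 (SE 0.10, FDR 0.00089). *Npas2*, a partner of ARNTL, went from 4.53, 5.35, 7.22 and 8.35 CPM to 3.03, 2.18, 2.57 and 4.47 CPM (−1.05, SE 0.26, FDR 0.033), and its lowest Pre value was just above its highest Post value. *Nfil3*, the repressor at D-boxes, was at 32.3, 26.8, 21.6 and 28.6 CPM in the Pre and at 11.7, 12.8, 12.3 and 11.3 CPM in the Post (chr13:52980849-52981189, minus strand). It fell in all 4 Post mice to a narrow band around 12 CPM (−1.18, SE 0.15, FDR 5.8e-05).

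*Nr1d1*, *Dbp*, *Nfil3* and *Arntl* passed without each library in turn. *Per3* was lost without Pre 1, Pre 4 or Post 4 (highest FDR 0.080), *Bhlhe41* passed in 3 of the 8 such fits (0.094), *Npas2* in 3 (0.13) and *Nr1d2* in 1 (0.14). Without TMM, 1 of the 5 core clock calls (*Nr1d1*) and 2 of the 3 output calls (*Dbp* and *Nfil3*) passed. For each of the 8 genes the exact permutation test of 4 against 4 gave p = 0.0286, the smallest that it allows, which groups without overlap always give. The 8 were chosen on the same libraries, and 11.5% of all clusters had groups without overlap, so this p adds no support.

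In the Mid, HiT, Fed and Dep mice the same promoters had other values. *Nfil3* had a mean of 41.2 CPM in the Mid, 35.0 in the HiT, 25.6 in the Fed and 43.7 in the Dep, beside 27.3 in the Pre and 12 in the Post. *Dbp* had 9.83, 9.05, 9.20 and 8.26 CPM in the same order, beside 8.39 in the Pre and 16.6 in the Post. *Arntl* had 51.4, 37.2, 41.4 and 57.2 CPM, beside 36.8 and 24.2. *Bhlhe41* had 8.39, 11.5, 14.3 and 9.69 CPM, beside 12.5 and 19.4. For all 8 clock promoters named above the Post mean was the most extreme of the 6 group means in the direction of its change, which is a description of levels with no test.

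**Figure D3:**
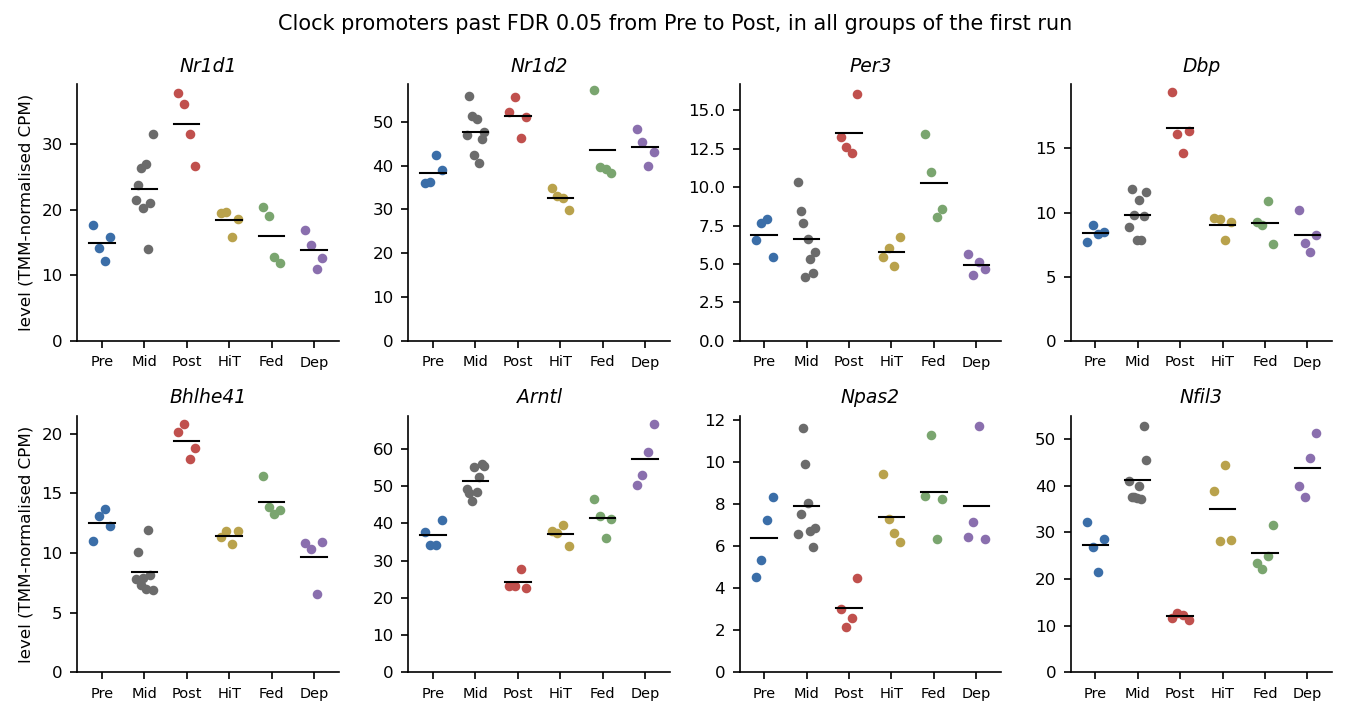
Level (CPM, axes from 0) of the 8 clock promoters past an FDR of 0.05 from Pre to Post, in every library of the 6 groups of the first run, with bars for the group means. In *Dbp* and *Nfil3* the 4 Post points lie apart from the points of each other group.

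Motif matches in the promoter windows were few. A RefSeq window of 300 bases (250 before and 50 after the start) could be matched to 73 of the 113 up-regulated, 45 of the 86 down-regulated and 6555 of all 10776 clusters. On either strand, the E-box CACGTG was in 7 (9.59%), 2 (4.44%) and 704 (10.7%) of these windows, and the D-box TTATGNAA in 2 (2.74%), 1 (2.22%) and 123 (1.88%). The ROR element TAGGTCA was in 1 (1.37%) of the up-regulated and 3 (6.67%) of the down-regulated windows, namely *Arntl*, *Nfil3* and the kelch protein *Klhl33*, and in 123 (1.88%) of all. The TATA box TATAAA was in 5 (6.85%), 2 (4.44%) and 473 (7.22%), those up-regulated being *Ankrd2*, *Fhl1*, *H3f3b*, *Myh3* and *Nmrk2*.

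Proteasome subunits were slightly higher as a group. The proteasome degrades proteins tagged with ubiquitin. Of 35 measured subunit genes, 4 were up-regulated and 0 down-regulated by the quasi-likelihood test, 18 were higher and 0 lower at an unadjusted p below 0.05, and DESeq2 called 7. The median log2 fold change was 0.20 and 34 of the 35 were above 0. Summed over the list, the level was 3735 to 3763 CPM in the 4 Pre and 4056 to 4563 CPM in the 4 Post, with Post 4 the lowest of the Post. *Psmd8*, a subunit of the 19S lid, was at 153, 149, 144 and 148 CPM in the Pre and at 187, 198, 188 and 187 CPM in the Post (0.36, SE 0.09, FDR 0.030). The base ATPase *Psmc1* went from 42.1, 41.9, 35.1 and 39.3 CPM to 51.0, 54.4, 52.2 and 46.5 CPM (0.36, SE 0.08, FDR 0.012). The lid subunits *Psmd12* (0.29, FDR 0.035) and *Psmd11* (0.41, FDR 0.049) were the others. These calls were close to the threshold. Of the 8 fits with a library left out, *Psmc1* passed in 6, *Psmd12* in 1, and *Psmd8* and *Psmd11* in 0. Without a library, 0 to 3 of the list passed (0 without Pre 3 or Post 2), and without TMM 0, while the list median stayed between 0.18 and 0.21 with each library left out and at 0.13 without TMM. The antioxidant response element TGACNNNGC, a site of NRF factors, was in 5 of 29 proteasome windows (17.2%) and in 15.7% of all windows.

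Other genes of protein synthesis and quality control had few calls. *Rrp9* (0.54, FDR 0.0052) and *Nhp2* (0.35, FDR 0.035), which serve in small nucleolar RNPs, were up-regulated among 27 genes of ribosome biogenesis, and 0 were down-regulated. At an unadjusted p below 0.05, 6 of the 27 were higher and 1 lower. The seryl-tRNA synthetase *Sars* (0.29, FDR 0.045) was up-regulated among 20 cytosolic tRNA synthetases, although its Pre and Post values overlapped. Of the 20, 7 were higher and 0 lower at an unadjusted p below 0.05, with a list median of 0.15. Their summed level was 945 to 994 CPM in the Pre and 1005 to 1158 CPM in the Post. *Ddit3* (CHOP), a transcription factor of the integrated stress response, was the member called among 13 ATF4-related genes. It went from 65.0, 59.8, 52.8 and 57.6 CPM to 109, 93.4, 97.5 and 69.3 CPM (0.65, SE 0.15, FDR 0.020), and 12 others did not pass, 8 of the 13 being below 0. Of 84 cytosolic ribosomal protein genes and 19 heat shock genes, 0 passed by the quasi-likelihood test (7 and 2 at an unadjusted p below 0.05, and 1 and 0 by DESeq2). Summed heat shock levels were nonetheless 9770 to 12037 CPM in the Pre and 12648 to 14703 CPM in the Post, led by the small heat shock protein *Cryab* at 5309 to 6739 and 7647 to 9252 CPM (0.44, FDR 0.17). Of these, *Rrp9* passed without each library in turn, *Ddit3* passed in 3, *Sars* in 2 and *Nhp2* in 0 of the 8 such fits.

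Beside *Ankrd2*, large rises were seen at several less abundant promoters. *Krt80*, a type II keratin, was at 2.32, 1.53, 1.79 and 2.38 CPM in the Pre and at 10.003, 6.34, 7.32 and 9.10 CPM in the Post (chr15:101369796-101370517, minus strand), a log2 fold change of 2.03 (SE 0.34, FDR 0.0015). *Acot1*, a cytosolic acyl-CoA thioesterase induced by PPARα, went from 2.02, 2.22, 2.60 and 3.10 CPM to 6.61, 8.36, 6.96 and 7.87 CPM (1.59, SE 0.32, FDR 0.0092). It has a close paralog in *Acot2*, and how tags that match both were assigned is not given in the sources used here. *Acot1* was the sole call among 27 PPAR target and fatty acid oxidation genes (9 at an unadjusted p below 0.05, 3 by DESeq2). The lncRNA *A330074K22Rik* (1.49, FDR 0.0015), the GM3 synthase *St3gal5* at its downstream promoter (1.45, FDR 0.035), a downstream promoter of the triglyceride lipase *Pnpla2* (1.24, FDR 0.012) and the embryonic myosin heavy chain *Myh3* (1.22, FDR 0.025) also rose. The main promoter of *Pnpla2*, at means of 119 CPM in the Pre and 174 CPM in the Post, had 0.55 and did not pass (FDR 0.16). An unequal change of its clusters did not pass either (FDR 0.12, edgeR's test of exon usage applied to clusters). *Myh3* was at 3.02 to 4.75 CPM in the Pre and 6.78 to 9.46 CPM in the Post.

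These rises differed in how the other groups compared. *Krt80* had means of 9.18 CPM in the Mid, 4.19 in the HiT, 1.35 in the Fed and 14.7 in the Dep, beside 2.00 in the Pre and 8.19 in the Post. *Acot1* had 23.5, 40.8, 2.22 and 20.8 CPM, beside 2.48 and 7.45. *St3gal5* had 179, 110, 23.7 and 149 CPM, beside 35.0 and 95.6. *A330074K22Rik* had 3.87, 3.07, 3.58 and 4.50 CPM, beside 3.27 and 9.19, so its Post mean was the highest of the 6. *Krt80*, *Acot1* and *A330074K22Rik* passed without each library in turn, *Pnpla2* was lost without Pre 2 (FDR 0.053), *Myh3* passed in 2 of the 8 such fits (highest FDR 0.086, without Pre 2) and *St3gal5* in 1 (0.13, without Pre 2).

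The largest falls included *Asb15* and, among genes of calcium transport, *Mrln*. *Asb15*, an ankyrin repeat and SOCS box protein of muscle, fell at both of its clusters. At chr6:24555911-24556396 (plus strand) it was at 10.5, 9.76, 7.10 and 12.6 CPM in the Pre and at 1.90, 2.10, 2.69 and 2.45 CPM in the Post, a log2 fold change of −2.13 (SE 0.26, FDR 4.6e-05). At chr6:24555553-24555889 it went from 15.4, 9.27, 8.72 and 17.4 CPM to 3.43, 3.04, 2.61 and 2.05 CPM (−2.20, SE 0.38, FDR 0.0022). *Mrln* encodes myoregulin, a micropeptide that inhibits the calcium pump of the sarcoplasmic reticulum. Its promoter (chr10:70204574-70204738, plus strand) was at 43.7, 63.7, 62.7 and 51.1 CPM in the Pre and at 26, 26.7, 29.6 and 26.7 CPM in the Post (−1.02, SE 0.12, FDR 4.6e-05). In the other groups its mean was 34.1 CPM (Mid), 35.8 (HiT), 52.1 (Fed) and 37.5 (Dep), all above the Post mean of 27.2. Of 20 calcium handling genes, *Mrln* and *Cacnb1* were down-regulated and 0 up-regulated at the main cluster of each gene, with a median of −0.05. *Sln*, another inhibitor of the pump, had a log2 fold change of −0.37 and did not pass (FDR 0.61).

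*Cdkn1a* (p21), the cell cycle inhibitor that glucocorticoids and fasting induce in muscle, was at 56.7, 40.7, 40.1 and 78.1 CPM in the Pre and at 21.5, 26.4, 23.7 and 26 CPM in the Post (−1.14, SE 0.28, FDR 0.029). The Pre values ranged widely and the Post values lay close together. *Abr*, a regulator of small GTPases, was at 44.8, 21.9, 23.5 and 40.4 CPM in the Pre and at 10.1, 17.3, 14.4 and 11.3 CPM in the Post (−1.30, SE 0.21, FDR 0.0015). Similar falls were seen in the guanylate-binding protein *Gbp10* (−1.30, FDR 0.010), a member of a family of near-identical genes, in *Lrrc52* (−1.19, FDR 0.0069), an auxiliary subunit of potassium channels, and in the zinc transporter *Slc30a2* (−1.34, FDR 0.0069). In *Cdkn1a*, *Abr*, *Gbp10* and *Lrrc52* the highest Pre values were those of Pre 1 and Pre 4. In the Mid mice the means were 233 CPM for *Cdkn1a*, 87.6 for *Abr*, 81.7 for *Gbp10* and 56.1 for *Lrrc52*, beside Pre means of 53.9, 32.6, 25.7 and 27.5 and Post means of 24.4, 13.3, 10.5 and 12.1. *Asb15*, *Mrln*, *Abr*, *Lrrc52* and *Slc30a2* passed without each library in turn, *Gbp10* was lost without Post 1 (FDR 0.060), *Cacnb1* without Post 1 (0.083), and *Cdkn1a* passed in 2 of the 8 such fits (highest FDR 0.14, without Pre 4).

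Of 21 measured glucocorticoid receptor targets, *Cdkn1a* passed and 0 were up-regulated (6 lower and 0 higher at an unadjusted p below 0.05, and 2 by DESeq2). The median log2 fold change was −0.30, 20 of the 21 were below 0, and the summed level was 1130 to 1444 CPM in the Pre and 875 to 939 CPM in the Post. *Pdk4*, the kinase that shuts off pyruvate dehydrogenase in the fasted state, had −0.95 (FDR 0.097) at its gene start, and *Fkbp5*, a co-chaperone of the receptor, −0.71 (FDR 0.15). The ubiquitin ligases of atrophy, *Trim63* (−0.21) and *Fbxo32* (−0.08), did not pass. Of 24 FOXO and atrophy genes, 1 was higher (*Psmd11*) and 1 lower (*Cdkn1a*), with a median of −0.17.

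Calls among metabolic genes were few, and on some lists most members lay below 0. *Oxct1*, which activates ketone bodies for oxidation, was at 408, 387, 415 and 413 CPM in the Pre and at 330, 339, 317 and 320 CPM in the Post (−0.31, SE 0.07, FDR 0.019). It was 1 of 7 measured genes of ketone body use. *Phkg1*, the catalytic subunit of muscle phosphorylase kinase, fell (−0.81, SE 0.21, FDR 0.036) and *Gbe1*, the glycogen branching enzyme, rose (0.41, SE 0.11, FDR 0.039) among 26 genes of glycolysis and glycogen, of which 18 were below 0 (median −0.14). At an unadjusted p below 0.05, 7 of the 26 were lower and 1 higher. *Grb14*, an adaptor that dampens the insulin receptor, fell (−0.75, SE 0.18, FDR 0.028), the 1 call among 19 genes of insulin and IGF signalling. The succinate dehydrogenase subunit *Sdhd* fell (−0.30, FDR 0.035) among 80 respiratory chain genes, of which 71 were below 0 (median −0.09, summed level 74781 to 77300 CPM in the Pre and 68434 to 75790 CPM in the Post). At an unadjusted p below 0.05, 7 of the 80 were lower and 0 higher. *Sdhd* was also the 1 call among 29 genes of the tricarboxylic acid cycle, of which 23 were below 0 (median −0.08). Of those 29, 6 were lower and 1 higher at an unadjusted p below 0.05. Their sum was 11560 to 11829 CPM in the Pre and 10354 to 11547 CPM in the Post. The mitochondrial ribosomal gene *Mrpl18* (−0.25, FDR 0.036) and the phosphatase of branched-chain amino acid breakdown *Ppm1k* (−0.55, FDR 0.035) were also lower. Of these 7 genes, each passed in 1 to 3 of the 8 fits with a library left out, with highest FDRs between 0.095 and 0.22, in each case without Post 1.

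Lipid synthesis was not detectably changed. Of 23 fatty acid synthesis and 13 cholesterol synthesis and uptake genes, 0 passed by the quasi-likelihood test (1 and 0 at an unadjusted p below 0.05, and 1 and 0 by DESeq2). The list medians were −0.03 and 0.03. *Fasn* varied from mouse to mouse, with means of 83.1 CPM in the Pre and 97.2 CPM in the Post and a log2 fold change of 0.23 with an SE of 0.50. Of 14 genes of PGC-1 and mitochondrial biogenesis, 0 passed (0 at an unadjusted p below 0.05 and 0 by DESeq2).

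The following promoters lie outside the rule for named genes and were chosen after their values were seen. The kelch protein *Klhl40*, which stabilises thin filament proteins, was at 41.5 to 55.0 CPM in the Pre and 72.3 to 91.8 CPM in the Post (0.73, FDR 0.025). *Nmrk2*, the muscle nicotinamide riboside kinase that also binds integrin, was at 29.9 to 40.6 and 57.3 to 97.7 CPM (1.14, FDR 0.020). The phosphomannomutase *Pmm1* was at 18.5 to 24.2 and 34.6 to 46.7 CPM (1.00, FDR 0.0015). *Gaa*, the lysosomal glucosidase that breaks down glycogen, was at 97.0 to 111 and 135 to 148 CPM (0.42, FDR 0.049). On the lower side, *Alas1*, the rate-limiting enzyme of heme synthesis outside red blood cells and a clock target in liver, was at 105 to 138 CPM in the Pre and 77.3 to 86.3 CPM in the Post (−0.56, FDR 0.0015). The cyclin *Ccng1*, a p53 target, was at 562 to 666 and 461 to 480 CPM (−0.39, FDR 0.0094).

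Some genes changed at 1 promoter and not at another. Of 459 genes with more than 1 cluster, 38 (8.28%) had clusters that changed unequally (FDR 0.05, edgeR's test of exon usage applied to clusters). On simulated counts this test made relatively more false calls than the test of single promoters. *Arpp19*, a regulator of the phosphatase PP2A, had the smallest p. Its 5′ cluster (chr9:75037496-75037971, plus strand) was at 110, 106, 108 and 100 CPM in the Pre and at 113, 121, 120 and 100 CPM in the Post (0.10, SE 0.08). Its downstream cluster (chr9:75051943-75052358) was at 1.32, 0.625, 1.38 and 1.08 CPM in the Pre and at 8.99, 8.55, 5.07 and 12.4 CPM in the Post, a log2 fold change of 2.99 (SE 0.39, FDR 5.8e-05), the largest rise among the named promoters. In the other groups its mean was 8.65 CPM (Mid), 12.2 (HiT), 0.81 (Fed) and 14.7 (Dep).

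*Ppip5k1*, a kinase that makes inositol pyrophosphates, rose more at its downstream cluster (chr2:121350479-121350899, minus strand), from 3.47, 3.06, 3.08 and 2.52 CPM to 9.40, 12.2, 11.1 and 10.3 CPM. The log2 fold change there was 1.82 (SE 0.19, FDR 7.3e-06), the smallest FDR of all clusters, against 0.30 (SE 0.07, FDR 0.025) at the upstream cluster. *Fhl1* rose at the abundant cluster described above, while its 3 other clusters, at 4.97 to 21.2 CPM, had log2 fold changes of 0.05, 0.29 and −0.75, none past the threshold. *Cacnb1*, the β1 subunit of the muscle calcium channel, had clusters that passed in opposite directions. The main cluster (chr11:98018287-98018468, minus strand) fell from 75.9 to 85.2 CPM in the Pre to 50.1 to 65.1 CPM in the Post (−0.47, FDR 0.012). The cluster upstream of it was at 18.8, 20.7, 25.6 and 19.3 CPM in the Pre and at 40.3, 42.9, 25.1 and 52.6 CPM in the Post (0.93, FDR 0.016), with Post 3 inside the Pre range.

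Further genes showed the same kind of difference. The downstream cluster of *St3gal5* rose by 1.45 while the upstream one, at 202 and 195 CPM, had −0.05. The reticulon *Rtn4* rose at the upstream cluster (0.48, FDR 0.013) and had −0.28 (FDR 0.11) at the downstream one. The splicing factor *Rbfox2* (0.87, FDR 0.00062) and the oxysterol-binding protein *Osbpl9* (0.92, FDR 0.0018) rose at the most downstream of 3 clusters.

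**Figure D4:**
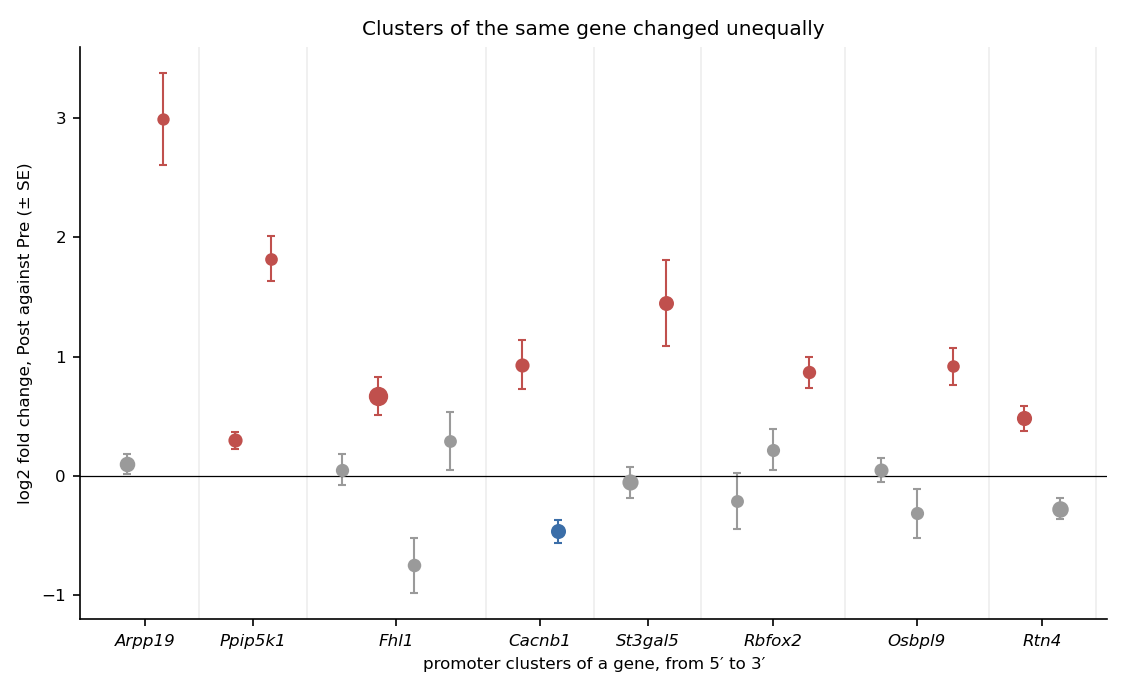
Log2 fold change from Pre to Post with its SE for each cluster of 8 genes with unequal change, ordered from 5′ to 3′ within a gene, red where higher and blue where lower past an FDR of 0.05, grey where not, with larger points for higher levels. In *Arpp19* the upstream cluster is at 0.10 and the downstream cluster at 2.99.

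Of the 199 clusters, 169 were assigned to 166 genes, by a limit of 500 bp to the annotated 5′ end of any transcript. The other 30 (15.1%) lay farther away, against 11% of all clusters. Of the 30, 10 were in an exon on the same strand (5 of them coding), 12 in an intron and 8 outside genes of that strand. The most abundant was in an untranslated exon of *Hspb7*, the small heat shock protein of heart and muscle, 923 bp from the start of the gene (chr4:141421470-141422692, plus strand). It was at 2744, 2403, 2468 and 3165 CPM in the Pre and at 4992, 4441, 4143 and 4442 CPM in the Post (0.74, SE 0.12, FDR 0.00092). Another *Hspb7* cluster, 3281 bp from the start, went from 21.7 to 28.6 CPM up to 38.8 to 69.4 CPM (0.92, FDR 0.048). A cluster in an intron of *Pdk4*, at chr6:5493766-5493995 (minus strand), also passed (FDR 0.030), on very few tags. It was at 0.0992, 0.313, 0.0811 and 0.144 CPM in the Pre and at 0 in all 4 Post, so no fold is given, and in the second run at 0.666 and 1.75 CPM in the Pre and at 0.422, 0.823 and 0.548 CPM in the Post. Among other clusters in introns, that of the calcium pump gene *Atp2a1* fell (−0.88, FDR 0.016) and that of *Myo18a* rose (0.56, FDR 0.0015). *Map3k20*, the kinase ZAK that senses ribosome stalling and muscle stretch, rose at its 5′ cluster (0.38, FDR 0.0070) and fell at a cluster in an intron (−0.55, FDR 0.0094).

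The second run measured the contrast again in other mice. There, 12 of 10816 clusters passed an FDR of 0.05 (0.111%), 3 higher and 9 lower, and 1205 had an unadjusted p below 0.05 (11.1%). With a library left out 0 to 4 passed, 0 of them without Pre 6, Post 5 or Post 7, and DESeq2 called 169. All 3 Post libraries of that run were sequenced on a different lane from the 2 Pre libraries, so lane and group cannot be told apart there. Its Pre and Post libraries had 9534972 to 20914855 tags in clusters. Of the 199 promoters called in the first run, 195 (98.0%) had the same sign in the second, against 65.9% of all clusters, and 133 (66.8%) had the same sign with an unadjusted p below 0.05, against 10.04% of all. No promoter of the 199 had an unadjusted p below 0.05 in the opposite direction. Taken in the direction of the first run, the median log2 fold change of the 199 was 0.54 in the second run, beside a median size of 0.58 in the first, which had chosen them.

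**Figure D5:**
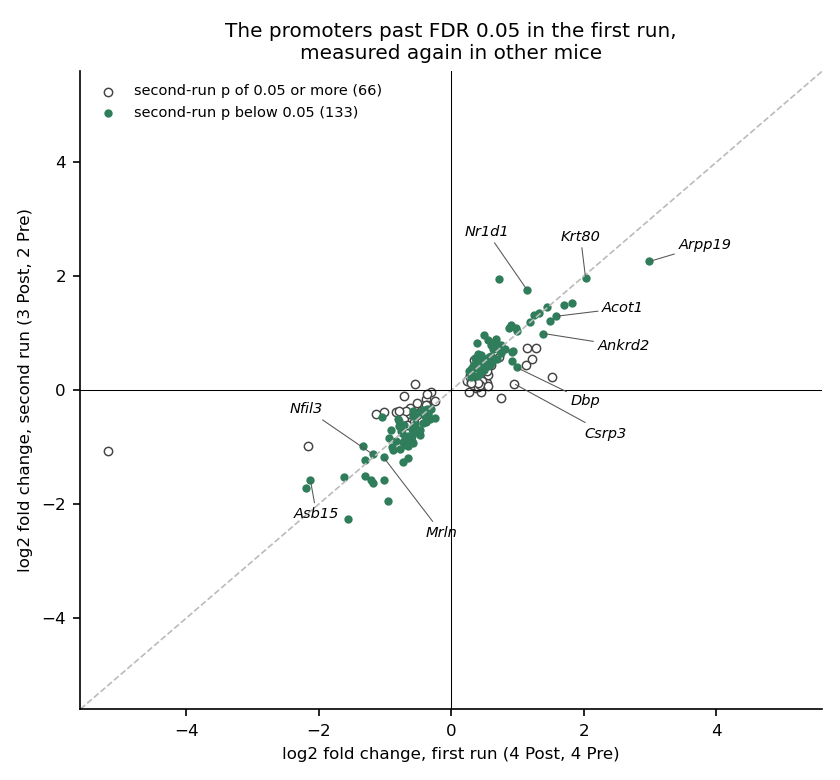
Log2 fold change from Pre to Post in the second run against that in the first run for the 199 promoters past an FDR of 0.05 in the first, filled where the second-run p was below 0.05 (133) and open where not (66), with the line of equal change dashed. All but 4 points lie in the lower left or upper right quadrant.

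In the second run *Ankrd2* was at 1044 and 1311 CPM in the Pre and at 2237, 2213 and 2595 CPM in the Post, a log2 fold change of 1.00. *Nr1d1* was at 13.6 and 18.1 CPM in the Pre and at 53.3, 40.9 and 67.2 CPM in the Post (1.76, FDR 0.023). *Mrln* was at 34.7 and 33.3 CPM in the Pre and at 15, 13.5 and 16.4 CPM in the Post (−1.18, FDR 0.022). These keep the Pre and Post apart without overlap. *Nfil3* had −1.13, *Asb15* −1.59 and −1.71 at its clusters, *Krt80* 1.97, *Ppip5k1* 1.53 at the downstream cluster and *Arpp19* 2.26 at the downstream cluster. Of the 12 calls of the second run, 9 were also among the 199, among them *Mrln*, *Nr1d1*, *Lrrc52*, *Clec16a* and *Arhgef2*. The 3 that were not include *Pdk4* (−1.37 in the second run, −0.95 in the first) and the RNA-binding protein *Khdrbs3* (−0.71 and −0.41).

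In the main test no single promoter passed for a difference in the change between the runs. By the quasi-likelihood test of the interaction over 10818 clusters, 0 (0%) passed an FDR of 0.05, 435 had an unadjusted p below 0.05, and DESeq2 called 4. Among the 199, 21 had an unadjusted interaction p below 0.05. For *Csrp3* it was 0.0031 (quasi-likelihood test). *Csrp3* was at 14.1 and 12.3 CPM in the Pre and at 13.5, 15.6 and 13.9 CPM in the Post of the second run, a log2 fold change of 0.12 at a level far below that of the first run. *Dbp* was at 9.89 and 11 CPM in the Pre and at 13.9, 12.2 and 15.1 CPM in the Post, a change of 0.40 against 0.99 (interaction p = 0.0059, quasi-likelihood test). *Cdkn1a* was at 23.2 and 19.5 CPM in the Pre and at 16.7, 18.1 and 13.5 CPM in the Post, a change of −0.41 against −1.14.

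Markers of other cell types were examined because the muscle holds them too, and in bulk samples fewer cells of a type and less RNA per cell cannot be told apart. None of the markers measured passed the threshold by the quasi-likelihood test. The 6 red blood cell genes were all lower in the Post, with a median log2 fold change of −0.94 (4 at an unadjusted p below 0.05, 0 by DESeq2). Their sum was 3605 to 5140 CPM in the Pre and 2021 to 2626 CPM in the Post. *Hba-a1*, a hemoglobin gene with a near-identical copy, was at 1225 to 1712 CPM and 675 to 876 CPM (−0.94, FDR 0.15), and in the second run at 460 and 487 CPM in the Pre and at 407, 497 and 519 CPM in the Post. The part of blood content in the other results was not tested. The 9 adipocyte genes had a median of −0.29 and sums of 2704 to 3476 CPM in the Pre and 1969 to 3663 CPM in the Post. The fibroblast sum was 3268 CPM in Pre 2, 2592 to 2694 CPM in the other Pre and 1953 to 2645 CPM in the Post, and 15 of 16 collagen genes were below 0 (median −0.22) with 0 past the threshold (1 at an unadjusted p below 0.05, 0 by DESeq2). Macrophage sums were 108 to 180 and 110 to 177 CPM and neutrophil sums 1.54 to 4.57 and 2.02 to 3.52 CPM. The 3 satellite cell genes summed to 138 to 173 CPM in the Pre and 114 to 135 CPM in the Post, which did not overlap. These genes did not move together, as 1 was above 0 and 2 were below. At an unadjusted p below 0.05, 1 was higher and 1 lower, and their part in the results was not tested. Endothelial sums were 398 to 447 and 390 to 411 CPM, tendon cell sums 638 to 670 and 549 to 747 CPM and smooth muscle sums 3620 to 4651 and 3851 to 4350 CPM. No gene on the T and B lymphocyte list had a cluster. Fast fiber genes had a median of −0.16 over 18 genes, with 0 past the threshold (4 at an unadjusted p below 0.05, 1 by DESeq2).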

How the data were processed

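Capped 5′ ends were counted by nAnT-iCAGE in 38 soleus libraries, each from a separate mouse. After trimming and alignment to mm10 (BWA and HISAT2, whose versions are not given in the sources used here), the authors grouped start sites with PromoterPipeline and deposited the raw tag counts of 10819 clusters, which were the values used. The 38 columns of normalised values in the same table were not used. Clusters were assigned to the gene of the nearest GENCODE M21 transcript 5′ end on the same strand within 500 bp (9615 clusters, 9076 genes). Of these windows, 261 held more than 1 gene. Counts were fitted with edgeR 4.0.16 (quasi-likelihood F test, TMM, group as the only term) over the 28 libraries of the first run and the 10776 clusters with any tag, followed by Benjamini-Hochberg adjustment at 0.05. The second run and the difference between runs were fitted in the same way. Promoter usage was tested with edgeR's exon usage test. Scripts were tested on simulated counts. Levels of single promoters were also compared by a two-sided exact permutation test on log2 CPM with a prior count of 2, where 4 against 4 libraries cannot give a p below 0.0286. DESeq2 1.42.0 was an alternative, as were other scalings, filters, sets of libraries, a replicate block and leaving out each library. R 4.3.3, limma 3.58.1, Python 3.11.15, pandas 2.3.3, numpy 2.4.6, scipy 1.17.1 and matplotlib 3.10.9 were used.

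Named promoters lay near an annotated start, had a mean of at least 1 CPM over the 8 libraries and passed the FDR. They were the 10 with the largest change and the 5 with the smallest p in each direction, the members of each gene list past the FDR (up to 6, or where none passed the 2 with the smallest p, whatever their FDR), and the 3 genes with the smallest p for promoter usage. The members and the gene lists were chosen with earlier results of these data known. Some genes, and a marker list that rests on them, are not reported here. Libraries were compared in pairs within the Pre and within the Post of each run, and no 2 of them agreed within sampling noise.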

Additional observations from a re-analysis of the deposited data

Results flagged for a closer look

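Among 110 groups of 4 libraries, 5 held a library farther from the others than Dixon's critical value for a group of 4 allows, and chance alone flags about 1 in 20 groups. *Slc30a2* was at 1.07 CPM in Post 4 and at 2.06 to 2.22 CPM in the other Post. *Arntl* was at 27.8 CPM in Post 3 and at 22.7 to 23.3 CPM in the other Post. *Grb14* was at 26.5 CPM in Pre 2 and at 18.97 to 20.01 CPM in the other Pre. *Psmd8* was at 198 CPM in Post 2 and at 187 to 188 CPM in the other Post. The summed fibroblast markers were at 3268 CPM in Pre 2 and at 2592 to 2694 CPM in the other Pre. Without Pre 2, 108 promoters passed the FDR in place of 199.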

How the results depend on the processing

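The 199 promoters past the FDR became 310 with DESeq2, 731 with the libraries of both runs, 21 without TMM (which moved the median of all clusters to −0.07) and 67 to 140 when a library was left out. The count was 246 by the likelihood ratio test, 187 with upper-quartile scaling, 275 with only the 8 libraries and 199 with a filter on low counts. Same-numbered Pre and Post libraries had correlations of 0.19, 0.01, −0.25 and 0.18, not every library correlated best with its own number, and the samples share only a number. In the fit of only the 8 libraries, a replicate block took the promoters from 275 to 61 (42 higher and 19 lower) and the genes for promoter usage from 55 to 43. The 38 genes with unequal change became 8 without TMM and 55 with only the 8 libraries, and 27 to 40 without a library. In the second run 12 became 169 with DESeq2, 13 without TMM and 0 to 4 without a library (0 without Pre 6, Post 5 or Post 7). The difference between runs gave 4 promoters with DESeq2 in place of 0. Of 46 named promoters past the FDR, 15 passed without TMM, 39 with only the 8 libraries, 18 with those and the block and 23 to 33 without a library, and none changed sign in these fits. Sign changes were seen in promoters that did not pass. With both runs, *Hmgcs1* went from −0.13 to 0.11. Leaving out a library gave −0.551 to 0.0543 for *Fabp4* and −0.0539 to 0.111 for the first *Fhl1* cluster (peak 56731785), which was at −0.0148 without TMM and −0.0225 with both runs. The causes were not tested.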
